A study of Brassica rapa with 12 samples.

Results

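The heat response described here is that of wild-type Chinese cabbage (Brassica rapa, cultivar Chiifu), measured as RNA from whole plants. It rests on 6 of the 12 libraries of the series: 3 from wild-type plants held at 37 °C for 1 h and 3 from wild-type plants left at 22 °C. The libraries were chosen by their titles alone. Plants of all groups were 2 weeks old, were grown on 1/2MS medium and were sampled as whole seedlings. The other 6 libraries are from GIGANTEA-edited Chiifu plants (called gi), 3 at 37 °C for 1 h and 3 at 22 °C. GIGANTEA is a protein of the circadian clock and of flowering by day length; the labels give the wild type as early and the gi plants as late flowering. The gi libraries serve as plants outside the wild-type comparison. They share in the estimate of the spread, the filter on counts and the scaling. The labels do not say how many plants made up a library or whether replicates were grown apart, so each p-value speaks only of variation among these libraries, some of which may be technical.

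A rise in temperature unfolds proteins, and plant cells answer within minutes. Heat shock transcription factors, held inactive by chaperones in unstressed cells, are released and switch on genes for heat shock proteins, which bind unfolded proteins and keep them from clumping. At the same time the transcripts of many genes for growth and photosynthesis drop in plants under heat. These statements are background from other studies of plants; none of the genes below could be assigned to such a class, because the files list genes by ID alone and 0 of their 47249 IDs matched the gene table at hand. For the same reason no gene sequence or promoter is shown, and the labelled tissue could not be checked against marker genes.

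Total counts in genes were 42580682 to 51853846 in the 3 wild-type libraries at 37 °C and 48105000 to 53587749 in the 3 at 22 °C. Replicate 1 at 22 °C stood apart from the other two of its group. Across genes, which are not independent replicates, its log2 CPM values (counts scaled to libraries of a common size by TMM, which sets libraries to a common level on the bulk of genes) correlated with those of replicates 2 and 3 at 0.920 and 0.905, against 0.967 between replicates 2 and 3. The pairs at 37 °C correlated at 0.959 to 0.969. Pairs of libraries from different temperatures correlated at 0.807 to 0.861. The median gene had an SD between replicates of 0.253 log2 units at 37 °C and 0.328 at 22 °C, or 0.154 at 22 °C without replicate 1 (SDs of 2 values rather than 3, and so not strictly alike). Results are therefore also given without that library.

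At 37 °C few genes took most of the counts. The smallest number of genes that together held 50% of a library's counts was 349, 395 and 351 in the libraries at 37 °C, against 1078, 1616 and 1882 at 22 °C. All 3 libraries at 37 °C lay below all 3 at 22 °C, and replicate 1 was the lowest at 22 °C. The means were 365 ± 26.0 (SD, n = 3) at 37 °C and 1525 ± 410 at 22 °C, or 1749 at 22 °C without replicate 1. The 1000 most abundant genes of a library held 62.2% ± 0.941 of its counts at 37 °C and 43.3% ± 5.07 at 22 °C. The effective number of genes, the exponential of the Shannon entropy of the counts, was 2899 ± 123 at 37 °C and 6949 ± 1615 at 22 °C. For each of these 3 measures the groups did not overlap, and a 2-sided exact permutation test gave p = 0.1 (0.1 also when adjusted over the 3), the smallest that 3 against 3 libraries allow.

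For the most abundant genes, replicate 1 at 22 °C stood apart from the other libraries of its group. The most abundant gene of a library held 1.08% to 1.17% of the counts at 37 °C and 1.03% to 2.30% at 22 °C, and these ranges overlapped only through replicate 1 at 22 °C, the other two libraries at 22 °C having 1.03% and 1.06%. The 10 most abundant genes held 9.33% ± 0.167 at 37 °C and 6.90% ± 3.28 at 22 °C, also with overlap (exact permutation test, 2-sided, p = 0.4). Here too replicate 1 at 22 °C stood alone, at 10.7%, above the 9.15% to 9.47% at 37 °C, while the others at 22 °C had 5.37% and 4.66%. At 37 °C, 123 ± 4.51 genes stood at 1000 or more reads in 1000000, against 65.7 ± 8.02 at 22 °C. At the other end, 21090 ± 603 genes reached 1 read in 1000000 at 37 °C, against 23970 ± 575 at 22 °C. The groups overlapped in neither measure: more genes were very abundant at 37 °C and fewer were above the low limit, on a scale that uses total counts only.

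Of the 47249 gene IDs, 28846 had enough counts to be tested, and 10109 had no count in any wild-type library. The filter asked for a level of about 10 counts, at the median library size, in at least 3 of the 12 libraries, from any group. Heat raised 5241 genes (18.2% of those tested) and lowered 4771 (16.5%) in wild type, together 34.7%, by edgeR's quasi-likelihood test at a Benjamini-Hochberg adjusted p under 0.05. The libraries of the 2 temperatures did not overlap for 97.4% of the raised, 94.9% of the lowered and 20.6% of the genes not called, against 46.8% of all genes tested. The median raised gene had a log2 change of 1.39 (2.63-fold), with quartiles of 0.85 and 2.61. The median lowered gene had a log2 change of -1.49 (2.80-fold), with quartiles of -2.20 and -1.004. The middle of both lists was thus alike in size. The tails were not. The 95th percentile of the raised genes was a log2 change of 5.89, while the matching 5th percentile of the lowered genes was -3.80.

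**Figure D1:**
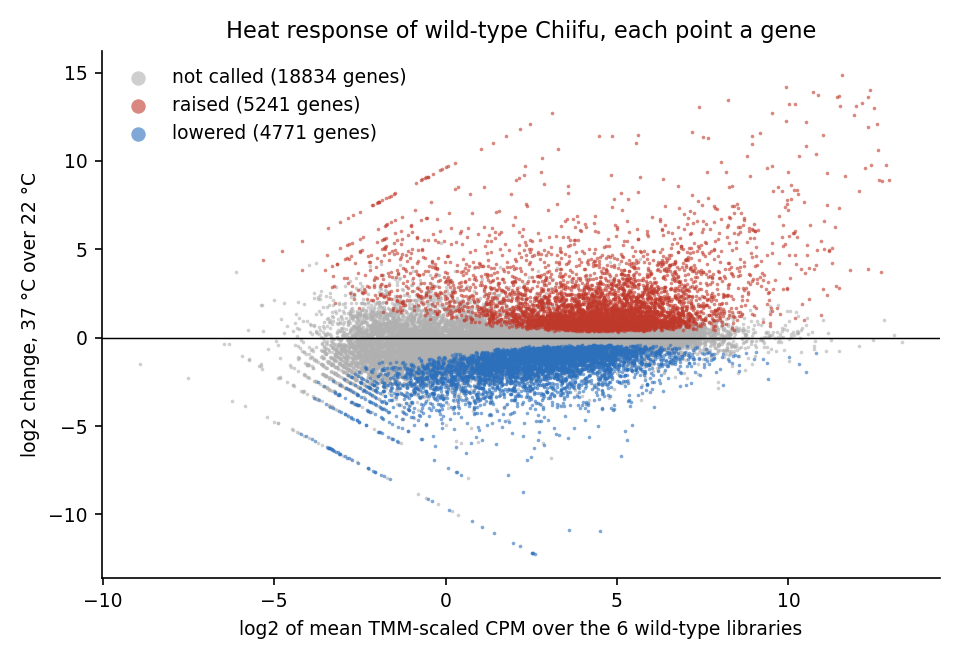
Each point is a gene, with the log2 of its mean TMM-scaled CPM over the 6 wild-type libraries across and its log2 change (37 °C over 22 °C) up; red points rose (5241), blue points fell (4771) and grey points were not called (18834). Rises above a log2 change of 5 extend to the most abundant genes at the right, while the deepest falls lie among genes of low mean level; straight diagonal lines are genes with 0 or few counts at one temperature, and 7 tested genes with no wild-type count are not drawn.

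The size classes show how rises and falls parted. Changes under 2-fold made up 1776 of the raised (33.9%) and 1177 of the lowered genes (24.7%). Between 2-fold and 4-fold lay 1629 raised and 2157 lowered genes, and between 4-fold and 8-fold 785 raised and 903 lowered. In these middle classes the falls were the more numerous. Beyond that the order turned: 669 genes rose and 437 fell by 8-fold to 32-fold, and 227 rose and 68 fell by 32-fold to 128-fold. The fitted change was 128-fold to 1024-fold for 109 raised and 18 lowered genes, and at least 1024-fold for 46 raised and 11 lowered genes. A test of a change of more than 2-fold itself (edgeR's glmTreat, adjusted p under 0.05) called 1972 genes raised (6.84% of those tested) and 1017 lowered (3.53%). Without replicate 1 at 22 °C, that test called 1943 raised and 960 lowered genes, and the counts of all changes were 5008 and 4293. Falls of more than 2-fold were fewer without wild type at 37 °C replicate 1 (616) or replicate 2 (630), and without replicate 1 at 37 °C 3178 genes were lowered in all.

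**Figure D2:**
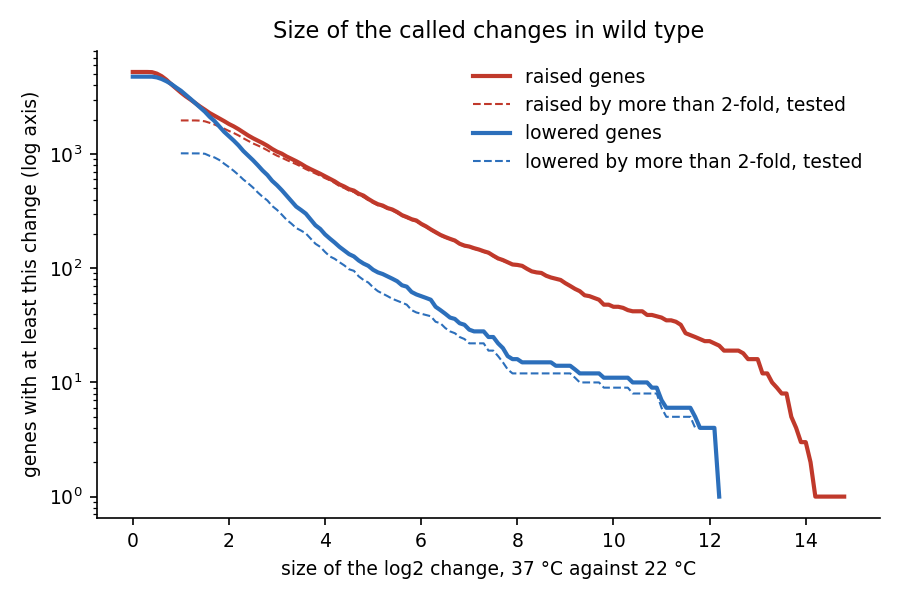
The number of genes (log axis) with at least a given size of log2 change is shown for raised genes in red and lowered genes in blue; dashed lines count the genes called for a change of more than 2-fold (1972 raised, 1017 lowered). The 2 solid lines run together up to a log2 change of about 2 and part beyond it, where 382 genes rose and 97 fell by at least 32-fold.

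Counts of 0 set a limit to the largest folds. In 39 raised genes the 3 libraries at 22 °C had no count, and in 43 lowered genes the 3 libraries at 37 °C had none. With these genes set to their bound against a floor of 3 counts per library (0.0427 CPM at 22 °C and 0.0919 CPM at 37 °C), at least 32-fold changes were left for 359 of the 382 raised and 63 of the 97 lowered genes. For changes of at least 1024-fold, 40 of 46 raised and 2 of 11 lowered genes were left. The medians of the full lists hardly moved (1.39 and -1.48). A fall can also be seen only as far as a gene's level at 22 °C reaches above the floor. A 32-fold fall could be shown by the 67.6% of tested genes with at least 2.94 CPM at 22 °C, and a 1024-fold fall by the 4.32% with at least 94.1 CPM. Among genes called lowered, 78.4% and 3.58% stood above these levels. A rise, in turn, can be shown only as far as the level at 37 °C lies above the floor at 22 °C.

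Of the tested genes, 18834 (65.3%) were not called. For 6963 of them the 95% interval of the log2 change lay within -1 and 1, so that any change was below 2-fold in either direction. The intervals of the other 11871 were wider or lay further out, 3122 of them spanning more than 4 log2 units, and for these neither a change nor its absence was measured. In addition 735 called genes (496 raised, 239 lowered) had an interval within 2-fold. Unadjusted p-values under 0.05 were found for 12975 genes, where 1442 would be met without any change.

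The balance of rises and falls turned with the scaling. The TMM factors were 0.665 to 0.760 at 37 °C and 1.26 to 1.52 at 22 °C. Scaled by total counts alone, all genes had a median log2 change of -1.05, against -0.11 with TMM; 2071 genes were then raised and 15835 lowered, so that 11.6% of the calls were rises, against 52.3% with TMM. With upper-quartile factors that median was -0.38 and 35.5% of the calls were rises. No added standard RNA is described in the labels, so the files fix levels relative to other genes and not the amount of RNA per plant. In whole plants, fewer cells of a type and less RNA per cell cannot be told apart.

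How often a gene changed depended on its level. Classes were formed on the mean TMM-scaled CPM over the 6 wild-type libraries, which gives neither temperature the say alone. Of the 5455 genes under 1 CPM, 5.55% rose and 11.7% fell. Of the 10147 genes at 1 to 10 CPM, 10.4% rose and 23.4% fell. Of the 11607 genes at 10 to 100 CPM, 27.4% rose and 14.4% fell. At 100 to 1000 CPM, 41.1% of 1519 genes rose and 5.92% fell. At 1000 CPM or more, 79 of 118 genes (66.9%; exact 95% binomial interval 57.7 to 75.3) rose and 4 fell (3.39%; 0.931 to 8.45). In classes formed this way, falls were the more frequent change below 10 CPM and rises above it. Scaled by total counts, falls were the more frequent call in every class up to 1000 CPM, and with upper-quartile factors also at 10 to 100 CPM; at 1000 CPM or more, rises stayed the more frequent (63.6% against 16.9% with total counts, 66.1% against 4.24% with upper-quartile factors).

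A class from both temperatures mixes level and response, since a gene that rises strongly becomes abundant by rising. The level in the 3 gi libraries at 22 °C gives a starting level from plants outside the comparison. By that level the share of rises no longer climbed to the top class. Rises made up 11.2% of genes under 1 CPM, 16.1% at 1 to 10 CPM, 23.9% at 10 to 100 CPM, 16.8% at 100 to 1000 CPM and 4 of 63 genes (6.35%) at 1000 CPM or more. Falls made up 8.14%, 21.4%, 17.0%, 12.6% and 7 of 63 genes (11.1%) of these classes. Rises thus outnumbered falls under 1 CPM, and falls outnumbered rises at 1000 CPM or more (7 against 4 genes). In both classes the order was the reverse of that in classes from both temperatures. In the top class the exact binomial intervals overlapped (1.76% to 15.5% for rises, 4.59% to 21.6% for falls), so the order there is uncertain. These shares use TMM, and classes from gi were not repeated under other scalings. Classes from the wild-type libraries at 22 °C, which also enter the fold, gave 12.9%, 15.7%, 23.3%, 14.4% and 2.78% for rises. The median standard error of the log2 change was 0.846 for genes under 1 CPM in gi at 22 °C, against 0.226 at 10 to 100 CPM. It was 0.294 at 100 to 1000 CPM and 0.388 at 1000 CPM or more. Small changes could therefore be called less often in the lowest class and, to a lesser degree, in the top classes.

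The size of a rise also differed with the starting level in gi at 22 °C. Among genes under 1 CPM there, the median rise in wild type was a log2 change of 3.79, and 428 of the 669 raised genes (64.0%) rose at least 8-fold. At 1 to 10 CPM the median was 1.69 and 22.8% of the raised genes rose at least 8-fold. At 10 to 100 CPM the median was 1.02 and 8.10% did. At 100 to 1000 CPM the median was 1.33 and 29 of 204 did, and at 1000 CPM or more 0 of 4 did. The median log2 change of lowered genes was -2.79 under 1 CPM, -1.61 at 1 to 10 CPM, -1.16 at 10 to 100 CPM, -1.21 at 100 to 1000 CPM and -1.49 for the 7 at 1000 CPM or more. Where standard errors are large only large changes pass the test, so these medians over called genes are not those of the classes; over all genes of a class the medians were -0.38, -0.29, 0.08, 0.05 and 0.02.

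**Figure D3:**
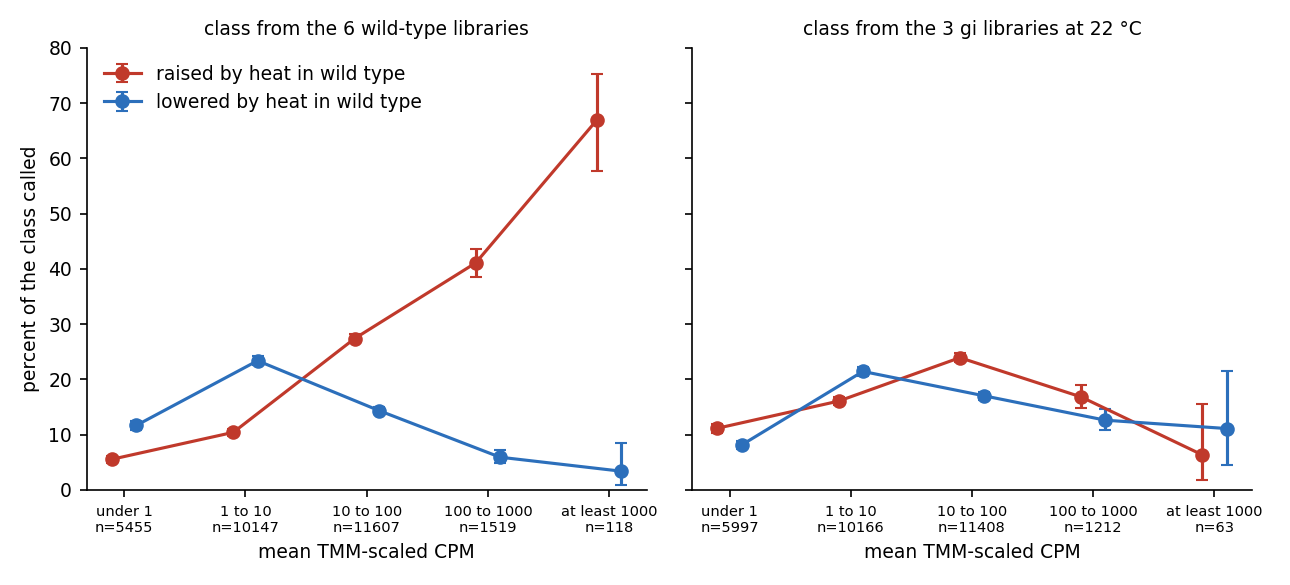
The percent of genes raised (red) and lowered (blue) by heat in wild type is plotted by class of mean TMM-scaled CPM, with exact 95% binomial intervals and the number of genes under each class. At left, with classes from the 6 wild-type libraries, rises climb from 5.55% to 66.9%; at right, with classes from the 3 gi libraries at 22 °C, they peak at 23.9% for 10 to 100 CPM and stand at 6.35% in the top class.

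Genes crossed these levels mostly by 1 class. On the TMM scale, 172 genes had a mean of 1000 CPM or more at 37 °C and 36 did at 22 °C, with 29 in common. Of the 172, 58 came from 100 to 1000 CPM at 22 °C, 46 from 10 to 100, 22 from 1 to 10 and 17 from under 1 CPM. All 85 genes that came from under 100 CPM were called raised, as were 43 of the 58, against 18.2% of all genes tested. The classes were set on the same libraries as the calls. These genes thus had large rises by choice, and the counts are no test. Genes at 100 to 1000 CPM numbered 1762 at 37 °C and 1102 at 22 °C. In the other direction, 6466 genes were under 1 CPM at 37 °C and 5397 at 22 °C. Of the 1941 genes that were at 1 to 10 CPM at 22 °C and under 1 CPM at 37 °C, 895 were called lowered, against 16.5% of all genes tested. They too were picked by their fall. No gene went from 1000 CPM or more at 22 °C to under 100 CPM at 37 °C, and 1 went from 100 to 1000 CPM to 1 to 10 CPM.

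The lists of the 10 most abundant genes had no gene in common, while longer lists overlapped in part. The 10 genes with the highest mean percent of counts at 37 °C were all called raised, and 0 of them were among the 10 highest at 22 °C, where their median rank was 10001.5. They held 9.12% ± 0.0804 of the counts at 37 °C and 0.149% ± 0.0138 at 22 °C. The 10 highest genes at 22 °C held 3.20% ± 0.625 at 37 °C and 6.43% ± 3.49 at 22 °C. Of these, 2 were called lowered and 8 were not called, and their median rank at 37 °C was 58.5. The ranking at 22 °C includes replicate 1 and was not repeated without it. For the 118 genes with a mean of 1000 CPM or more in wild type, the median SD between replicates at 22 °C was 0.565 log2 units. Without replicate 1 it was 0.249, an SD over the 2 libraries left and so not strictly alike. Among the 100 highest, 21 genes were common to both temperatures; 88 of the 100 at 37 °C were raised and 12 not called, and of the 100 at 22 °C, 10 were raised, 11 lowered and 79 not called. Among the 1000 highest, 530 genes were common to both; 593 of the 1000 at 37 °C were raised and 391 not called, and 725 of the 1000 at 22 °C were not called. These lists were ranked on the same libraries, so their shares describe the exchange and are not tested.

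The raised genes held 60.6%, 61.1% and 59.2% of the counts in the libraries at 37 °C, against 13.8%, 18.3% and 18.7% at 22 °C. The lowered genes held 3.16%, 3.25% and 3.40% at 37 °C, against 15.9%, 14.5% and 14.9% at 22 °C. Groups do not overlap, as the choice of genes makes likely, and the shares are given with no test. With fewer genes called lowered when a library at 37 °C was left out, their share was 1.89% to 2.30% at 37 °C and 9.96% to 11.9% at 22 °C. The 18834 genes not called held 36.4% ± 0.884 at 37 °C and 67.9% ± 2.02 at 22 °C. The 7698 genes steady within 2-fold held 19.7% ± 0.218 at 37 °C and 36.2% ± 0.942 at 22 °C, a ratio of 0.545. The ratio of the mean TMM factors, 37 °C over 22 °C, was 0.518, so a gene at an equal TMM-scaled level has a share of counts at 37 °C that is about this fraction of its share at 22 °C.

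**Figure D4:**
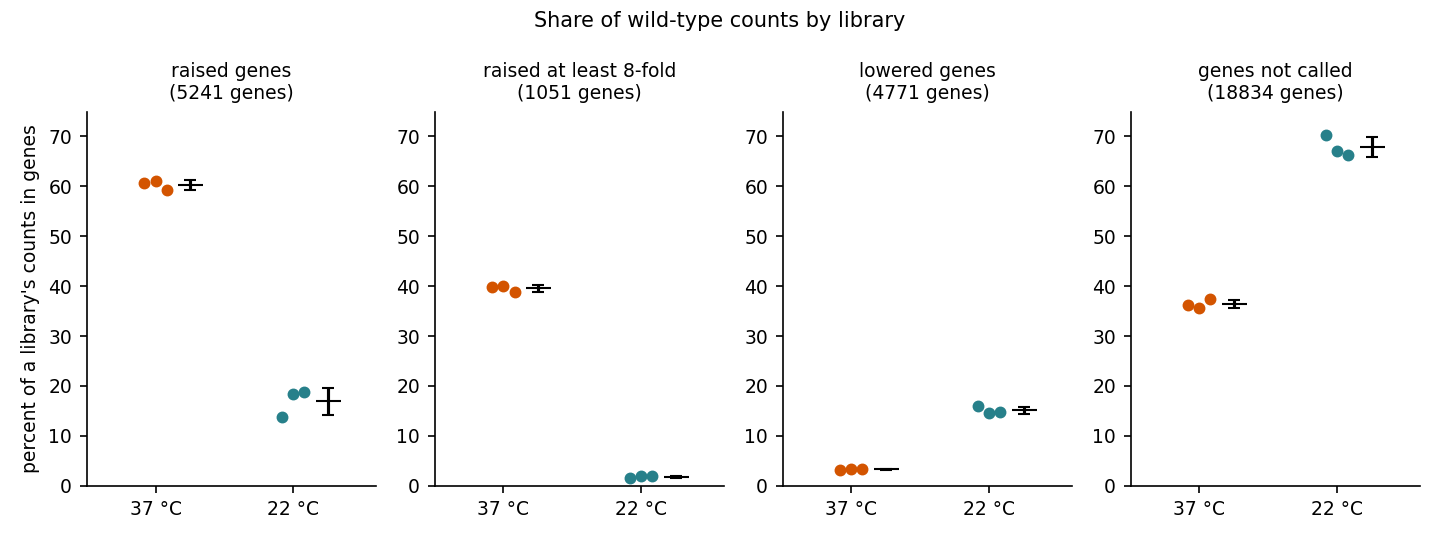
Each point is a wild-type library, with the percent of its counts in raised genes, genes raised at least 8-fold, lowered genes and genes not called; the bar beside the points is the mean with its SD (n = 3). Raised genes stood at 59.2% to 61.1% at 37 °C and 13.8% to 18.7% at 22 °C, with replicate 1 the lowest at 22 °C.

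A small group of genes made most of the gain. The 382 genes raised at least 32-fold, 1.32% of those tested, held 28.2% ± 0.525 of the counts at 37 °C and 0.286% ± 0.0414 at 22 °C. The 46 genes with a fitted rise of at least 1024-fold held 11.1% ± 0.312 at 37 °C and 0.00467% ± 0.00213 at 22 °C, and their median level at 37 °C was 1947 CPM. The 109 genes raised 128-fold to 1024-fold held 10.8% ± 0.647 and 0.0568% ± 0.0114. At the small end, the 1776 genes raised under 2-fold held 5.82% ± 0.157 at 37 °C and 6.80% ± 1.03 at 22 °C. Of all raised genes, 1655 had a smaller percent of the counts at 37 °C than at 22 °C, so these were rises on the TMM scale and not in share of counts.

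For the 3586 raised genes whose percent of counts was larger at 37 °C, the gains summed to 44.3 percentage points. The 10 largest gains gave 20.2% of that sum, and 44 genes gave 50% of it. All 4771 lowered genes had a smaller percent of counts at 37 °C. With mean TMM factors at a ratio of 0.518 (37 °C over 22 °C), a fall on the TMM scale brings this with it. The losses of these genes summed to 11.8 percentage points. There the 10 largest gave 11.9% of the sum, and 358 genes were needed for 50%. By the calls made with TMM, most of the counts given up at 37 °C were not those of called genes. The 18834 genes not called differed by -31.5 percentage points, 37 °C minus 22 °C. That split is tied to the calls. When libraries were scaled by their totals alone, lowered genes held 63.5% of the counts at 22 °C and 25.8% at 37 °C. Much of the loss then lay in called genes. The 534 genes lowered at least 8-fold held 0.0257% ± 0.000952 at 37 °C and 0.647% ± 0.0629 at 22 °C, and so took little part in the loss.

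Among called genes whose libraries did not overlap between temperatures, those with the largest gains and losses in percent of counts are given by ID. BraA06g020960.3.5C, on chromosome A06 by its ID, held 1.13%, 1.08% and 1.17% of the counts at 37 °C, against 0.00176%, 0.00591% and 0.00607% at 22 °C. It ranked 1 of all genes at 37 °C and 4902 at 22 °C, and its lowest value at 22 °C was in replicate 1. Its log2 change was 8.93 (SE 0.553, edgeR adjusted p = 9.85e-07), or 8.54 without replicate 1 at 22 °C. BraA03g035810.3.5C held 1.05%, 1.05% and 1.08% at 37 °C, against 0.00178%, 0.000970% and 0.00455% at 22 °C. Its level varied more than 4-fold between the libraries at 22 °C, far less than the distance to 37 °C. It ranked 2 at 37 °C and 8899 at 22 °C, with a log2 change of 9.76 (SE 0.679, edgeR adjusted p = 2.21e-06). In gi, outside the comparison, their log2 changes were 8.04 (SE 0.533) and 9.71 (SE 0.678), and neither was called by the interaction (edgeR adjusted p = 0.621 and 0.988).

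The largest losses among such genes were modest in fold; genes not called are outside this choice. BraA10g009810.3.5C held 0.0624%, 0.0435% and 0.0232% of the counts at 37 °C, against 0.195%, 0.393% and 0.385% at 22 °C. The groups did not overlap, and again replicate 1 was the lowest at 22 °C. It ranked 275 at 37 °C and 9 at 22 °C, with a log2 change of -1.92 (SE 0.380, edgeR adjusted p = 0.00302; for a change of more than 2-fold, adjusted p = 0.0411). BraA01g005060.3.5C held 0.0898%, 0.0789% and 0.0978% at 37 °C, against 0.423%, 0.263% and 0.249% at 22 °C, here with replicate 1 the highest. Its log2 change on the TMM scale was -0.89 (SE 0.298, edgeR adjusted p = 0.0387), and it was no longer called without replicate 1 at 22 °C (log2 change -0.55, edgeR adjusted p = 0.0643), nor without any 1 of the libraries at 37 °C (edgeR adjusted p = 0.0768 to 0.1295), nor in a fit of the wild-type libraries alone, without (edgeR adjusted p = 0.124) or with the replicate block (edgeR adjusted p = 0.222). In gi the log2 changes of these genes were -1.44 (SE 0.374) and -1.16 (SE 0.300).

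Genes picked in gi alone showed the same exchange of counts in wild type. The 4685 genes raised by heat in gi (16.2% of those tested) held 53.2%, 54.0% and 52.2% of the wild-type counts at 37 °C, against 9.59%, 11.7% and 12.3% at 22 °C. The 4082 genes lowered in gi (14.2%) held 6.23%, 6.22% and 6.402% at 37 °C, against 19.7%, 21.2% and 20.3% at 22 °C. In both lists the groups did not overlap, and a 2-sided exact permutation test over the 6 wild-type libraries gave p = 0.1, the smallest it allows. The wild-type libraries had no part in these choices beyond the estimate of spread, the filter on counts and the TMM scaling, which used all 12 libraries.

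Genes with large rises in wild type had like changes in gi, and genes with large falls had smaller ones. Genes raised 32-fold to 128-fold in wild type had a median log2 change of 5.81 in wild type and 5.58 in gi (quartiles 4.77 and 6.36 in gi). For rises of at least 1024-fold the medians were 11.996 in wild type and 11.907 in gi, and all 46 genes were called raised in gi. Of the 382 genes raised at least 32-fold, 367 (96.1%) were called raised in gi, against 16.2% of all genes tested. Of the 382, 4 differed between the genotypes by the interaction (edgeR adjusted p under 0.05), which called 0.118% of all genes tested. Genes lowered 8-fold to 32-fold had a median log2 change of -3.53 in wild type and -2.21 in gi. For falls of 32-fold to 128-fold the medians were -5.78 in wild type and -2.57 in gi. Of the 97 genes lowered at least 32-fold, 31 (31.96%) were called lowered in gi, against 14.2% of all genes tested. The interaction called 11 of the 97. The wild-type values set these classes, so the gap to gi in medians is given with no test. They also enter the interaction, so its calls among the 382 and the 97 genes are not free of that choice. For changes of 8-fold to 32-fold the median standard error in wild type was 0.877 for falls and 0.461 for rises. At 32-fold to 128-fold it was 1.43 for falls and 0.595 for rises. Of the 97 lowered genes, 43 had no count at 37 °C in wild type. Of the 382 raised genes, 37 had no count at 22 °C. Over all 10012 called genes the interaction called 32; this number was 103 without wild type at 22 °C replicate 1, 15, 20 and 18 without replicates 1, 2 and 3 of wild type at 37 °C, 14 with a replicate block and 353 with DESeq2.

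**Figure D5:**
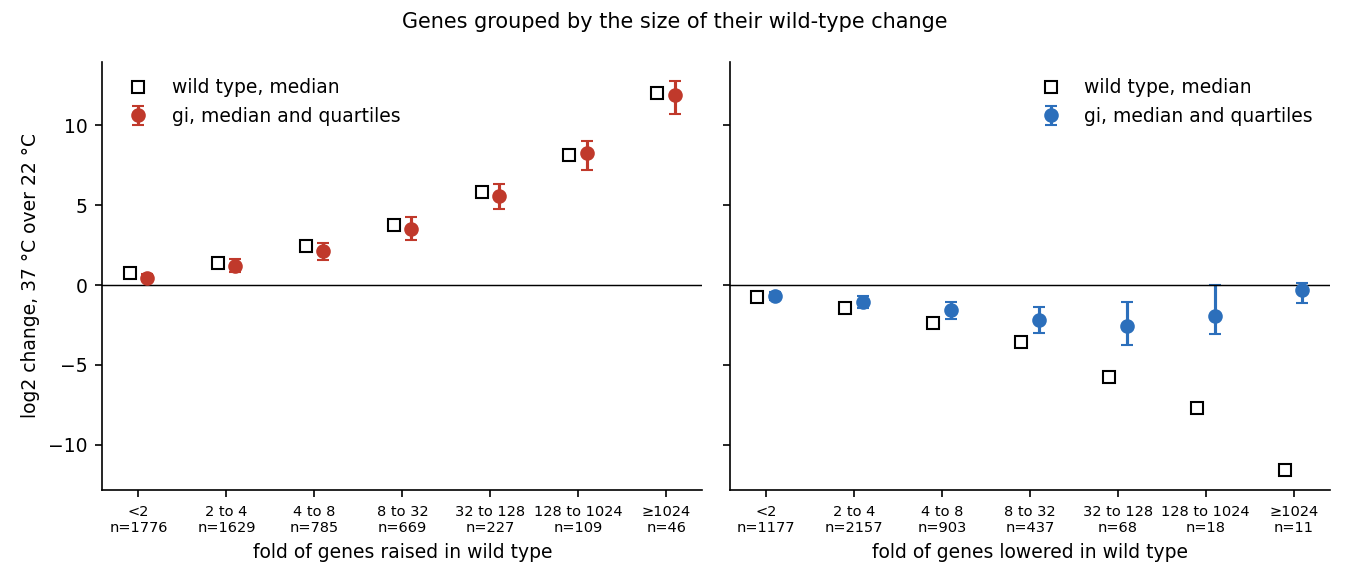
Genes raised (left) and lowered (right) in wild type are grouped by the fold of their change, with the number of genes under each group. Open squares are median log2 changes in wild type and filled circles those in gi with their quartiles; squares and circles keep together up to 11.996 and 11.907 for the largest rises, and part for falls, where the last group has medians of -11.60 in wild type and -0.30 in gi.

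The deepest falls gathered on 1 chromosome. By the IDs, 39 of the 97 genes lowered at least 32-fold were on chromosome A03 (14.7% of all tested genes), as were 17 of the 29 lowered at least 128-fold. All 11 interaction genes among the 97 lay on A03. For the 58 on other chromosomes the median log2 change was -6.10 in wild type and -2.94 in gi. Of these 58, 25 were called lowered in gi, against 14.2% of all genes tested. Genes raised at least 32-fold lay on all 10 chromosomes, 61 of 382 on A03. Of all tested genes, 15.3% (A02) to 22.3% (A10) rose and 14.6% (A10) to 18.8% (A02) fell on the 10 chromosomes. Among 108 tested genes not placed on a chromosome, 22 rose and 3 fell.

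The neighbours of raised genes are described by ID only. Taking the order of IDs as the order along a chromosome, which was not checked against a genome, the tested gene after a raised gene was also raised in 24.3% of cases, against 18.2% of all such genes, a description with no test. For rises of at least 8-fold the shares were 7.85% and 3.63%, and for falls of at least 8-fold 5.82% and 1.86%. Runs of genes raised at least 8-fold were mostly of length 1 (889 runs), with 65 runs of 2, 7 of 3 and 1 of 4 genes. Adjacent genes include near-identical copies, between which reads may be split, and on which strand reads were counted was not given in the sources used here, so neighbours need not be separate measurements.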

How the data were processed

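Libraries of whole-plant mRNA were made with Illumina's TruSeq stranded kit and run on a NovaSeq instrument, per the labels' protocols. The authors deposited raw counts per gene, 1 table per library, not normalized. The submitters' processing notes list FastQC, TopHat2, HTSeq and edgeR; their versions, the genome build and the strand setting are not given in the sources used here. Each table ends in 5 rows that name no gene, which entered no library size or test. The row of unaligned reads came to 102.1% to 104.5% of the aligned reads in wild type, so it exceeded them in each library. The other closing rows held 8.63% to 10.1% of the aligned reads in wild type.

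The tests used edgeR 4.0.16 under R 4.3.3 (filterByExpr with a minimum count of 10 and a minimum total of 15, TMM, estimateDisp, robust glmQLFit) in 1 model with 4 group means over all 12 libraries. P-values were adjusted by Benjamini-Hochberg over 28846 genes and called under 0.05. Standard errors were computed from each log2 change and its F statistic, and 95% intervals from the t distribution. Replicate correlations used log2(CPM + 0.5). Binomial intervals on percents of a class treat its genes as separate draws. Floors express counting error alone, as reads carried no molecular identifiers and need not be separate molecules.

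Named genes were the 2 largest gains and the 2 largest losses in mean percent of counts among called genes whose temperatures did not overlap. The members, classes and tests were chosen with earlier results of these data known. Alternatives were other scalings, DESeq2 1.42.0, other filters, the wild-type libraries alone, replicate blocks and leaving out libraries. The procedure was run on simulated counts in which few genes changed, evenly up and down. Scaling under a response as broad as the one found here was therefore not checked by it. Chi-squares per degree of freedom between replicates were 65.4 to 416, so no library was counted as a copy of another. Libraries of the same replicate number at 37 °C and 22 °C deviated together at correlations of -0.00443, 0.0780 and 0.0509, so the numbers were not taken as pairs.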

Additional observations from a re-analysis of the deposited data

Results flagged for a closer look

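Outside the gene counts, the percent of aligned reads that were ambiguous between genes was higher at 37 °C (1.10% ± 0.0184, SD, n = 3) than at 22 °C (1.04% ± 0.0481), with no overlap between the wild-type libraries (2-sided exact permutation test p = 0.1, the smallest it allows). Reads outside genes were lower, at 2.76% ± 0.105 at 37 °C and 3.25% ± 0.334 at 22 °C. The part of these shares in the results was not tested.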

How the results depend on the processing

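The tests of heat in wild type were repeated under 3 other scalings, DESeq2, 2 other filters, the wild-type libraries alone, 2 replicate blocks and without each wild-type library; the cause of a shift was not tested except where the setting names it. With total counts in place of TMM, 2071 genes were raised and 15835 lowered, 1701 and 12201 of them at least 2-fold, 214 were lowered at least 32-fold, 1152 were raised and 6255 lowered by more than 2-fold (glmTreat), 3678 were steady and the median log2 change was -1.05. With upper-quartile factors 7195 were lowered, 1691 by more than 2-fold (glmTreat), with a median of -0.38. With the minimum count of 50, 51 genes were lowered at least 32-fold and the median was -0.078. It was -0.175 without a filter and -0.042 with DESeq2, which called 5846 and 5922 genes. With the wild-type libraries alone, 59 were lowered at least 32-fold and 630 by more than 2-fold (glmTreat). The numbers did not pair the libraries; with the replicate block over all libraries 5033 genes were raised and 4308 lowered with a median of -0.085, and with the replicate block in the wild-type libraries alone 2520 were raised and 1547 lowered, 1520 of these at least 2-fold and 40 at least 32-fold, with 1205 and 270 by more than 2-fold (glmTreat), 4767 steady and a median of -0.065.

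Leaving out 1 wild-type library gave 4172 to 5008 raised and 3178 to 4603 lowered genes, 3135 to 3425 and 2547 to 3600 of them at least 2-fold, 378 to 476 and 93 to 138 at least 32-fold, 1716 to 1943 and 616 to 1050 by more than 2-fold (glmTreat), 6503 to 8414 steady genes and medians of -0.16 to -0.081. The percent of counts in raised genes was then 56.1 to 60.8 at 37 °C and 12.5 to 18.4 at 22 °C, and in lowered genes 1.89 to 3.96 and 9.96 to 17.7. Genes called both in wild type and by the interaction numbered 15 to 103 (DESeq2 353, replicate block 14, with all libraries 32).

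The percent of counts in raised genes, at 37 °C and 22 °C, was 47.8 and 5.19 with total counts, 56.3 and 12.3 with upper-quartile factors, 61.7 and 19.7 with DESeq2, 55.7 and 12.4 with the wild-type libraries alone, 49.1 and 6.73 with the replicate block in these, and 58.4 at 37 °C without a filter. In lowered genes it was 25.8 and 63.5 with total counts, 6.73 and 24.9 with upper-quartile factors, 4.34 and 19.0 with DESeq2, 3.61 and 16.2 with the minimum of 50, 1.76 and 9.28 with the wild-type libraries alone, 0.777 and 5.003 with the replicate block in these, and 2.94 and 13.8 with the replicate block over all libraries.

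By class, from low to high level, rises were 11.2, 16.1, 23.9, 16.8 and 6.35% with classes from gi at 22 °C, 12.9, 15.7, 23.3, 14.4 and 2.78% with classes from wild type at 22 °C, 3.59, 3.96, 8.65 and 25.9% with total counts (the top class kept its share), and 4.75, 7.50, 19.8 and 36.6% with upper-quartile factors, scalings added after the data were seen, as were the repeats for steady genes and the interaction. Falls were 8.14, 21.4, 17.0, 12.6 and 11.1% with the first, 6.87, 20.1, 18.0, 13.6 and 13.9% with the second, 34.2, 61.8, 60.8, 41.2 and 16.9% with total counts, and 15.7, 32.5, 24.6 and 12.1% with upper-quartile factors. BraA01g005060.3.5C was not called with the wild-type libraries alone, with the replicate block in these, without replicate 1 at 22 °C or without any 1 library at 37 °C (edgeR adjusted p = 0.0643 to 0.222), and BraA10g009810.3.5C not with the replicate block in wild type alone (edgeR adjusted p = 0.0788); the direction of the 4 named genes was the same in all settings.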
